A study of Rattus norvegicus with 6 samples.

Results

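The blood-spinal cord barrier set consisted of 10 genes, namely the tight junction genes Cldn5, Ocln and Tjp1, the transporter genes Mfsd2a, Slco1a4, Slc2a1, Abcb1a, Slc7a5 and Slc22a8, and Itm2a, a gene of a membrane protein that is abundant in brain and cord endothelium. They were taken by name, with earlier results of these data already known. All 10 were found among the 28615 gene names that the 4 time-course libraries share. Of the 25054 gene symbols of the 2 libraries from injected cords, 9 were members: Abcb1a was not analysed there.

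The study used single-cell RNA-seq of the whole spinal cord of Rattus norvegicus, genotype SD, aged 6 to 8 weeks. A crush injury was made at thoracic level 10. One group was intact cord, and 3 groups were crushed cord taken at 1, 3 or 7 days post injury, called day 1, day 3 and day 7 here. The other two groups were crushed cords injected at day 3 with MPSS, the drug under test, at 10 mg/ml or with PBS, its vehicle, at 5 sites of 1 µl, and collected 2 weeks after injury. The intact library carries a crush label in its treatment field, and its title was followed. The labels give 5 animals for each condition and 1 library each, so no animal can be told from another, and tissue came from a 5-mm section at the injury site. The injected libraries are marked in the labels as re-analysed. With 1 library per group there was no replicate check and no test between groups. Each interval below is an exact 95% interval that covers counting error only, and a fold difference compares 2 libraries, not 2 conditions.

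The barrier is formed by endothelial cells. Claudin-5 and occludin seal the cleft between neighbouring cells, and ZO-1, the product of Tjp1, ties them to the actin cytoskeleton. Transporters in the same cells then decide what passes: GLUT1 (Slc2a1) carries glucose, LAT1 (Slc7a5) carries large neutral amino acids, MFSD2A carries lysophospholipids with long-chain fatty acids and holds down transcytosis, OATP1A4 (Slco1a4) and OAT3 (Slc22a8) move organic anions, and P-glycoprotein (Abcb1a) returns drugs to the blood. Endothelial Wnt and beta-catenin signalling, which ends on TCF/LEF factors, is known to induce much of this programme.

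Because several members moved together, the rat sequences just before 4 of their starts are shown: Itm2a and Slc7a5, which were far lower at day 1, and Cldn5 and Slc2a1, which stayed within 2-fold. Each run is the 250 bases before the start of the gene, 5′ to 3′ on the strand of the gene, from RefSeq on GRCr8. Capitals mark CTTTG or its reverse CAAAG, the core of TCF/LEF sites, and ACGTG or its reverse CACGT, the core of hypoxia response elements.
Itm2a: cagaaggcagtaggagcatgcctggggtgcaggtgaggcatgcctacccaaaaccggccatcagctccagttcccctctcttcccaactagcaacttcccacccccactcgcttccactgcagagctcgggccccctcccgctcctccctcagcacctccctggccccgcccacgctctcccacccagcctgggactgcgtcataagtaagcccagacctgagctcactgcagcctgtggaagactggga
Slc7a5: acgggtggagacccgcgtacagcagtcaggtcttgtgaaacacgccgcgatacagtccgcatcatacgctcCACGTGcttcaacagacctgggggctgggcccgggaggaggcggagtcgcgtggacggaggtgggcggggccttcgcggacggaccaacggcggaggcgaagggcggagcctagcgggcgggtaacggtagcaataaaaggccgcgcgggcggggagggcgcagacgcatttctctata
Cldn5: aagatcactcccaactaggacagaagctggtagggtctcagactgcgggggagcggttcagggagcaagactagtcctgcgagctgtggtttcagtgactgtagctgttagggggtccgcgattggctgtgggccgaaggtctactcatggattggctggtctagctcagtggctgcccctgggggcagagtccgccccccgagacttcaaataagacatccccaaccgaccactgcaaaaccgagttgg
Slc2a1: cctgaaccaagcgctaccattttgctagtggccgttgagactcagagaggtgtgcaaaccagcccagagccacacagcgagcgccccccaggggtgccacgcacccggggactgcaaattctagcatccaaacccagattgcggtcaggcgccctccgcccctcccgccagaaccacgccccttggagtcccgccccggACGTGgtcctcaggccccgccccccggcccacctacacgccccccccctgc

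These runs lie at chrX:76565145-76565394 for Itm2a, chr19:66872413-66872662 for Slc7a5, chr11:95718599-95718848 for Cldn5, all on the minus strand, and chr5:138002272-138002521 on the plus strand for Slc2a1, directly before the annotated gene in each case. Promoter sequences were found for 9 of the 10 members; Mfsd2a was not among them. Slc2a1 held 1 ACGTG, 51 bases before the start. Slc7a5 held the overlapping pair ACGTG and CACGT as a single CACGTG, whose first base lies 179 bases before the start. Neither motif was found in the runs of Itm2a or Cldn5. Over 33469 promoters of the same length, CTTTG or CAAAG was present in 48.2% and ACGTG or CACGT in 16.6%. Of the 9 members, 4 held CTTTG or CAAAG (Ocln, Tjp1, Slco1a4 and Slc22a8) and 3 held ACGTG or CACGT (Slco1a4, Slc2a1 and Slc7a5). The runs of Ocln, Tjp1, Slc22a8 and Abcb1a lie inside the annotated gene and not directly before it. For Tjp1 the run is chr1:128325361-128325610 on the minus strand, and the gene is annotated at chr1:128260330-128505018. A match is a description of the letters only. The time-course tables use mouse-form gene names, with 7659 names of the forms Gm, Rik or ENSMUSG, so these rat sequences belong to the labelled organism and not to a sequence used in those tables.

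Endothelial cells were gated with 12 endothelial markers, none of which is a member: Pecam1, Cdh5, Flt1, Egfl7, Esam, Ramp2, Emcn, Tie1, Tek, Erg, Eng and Ptprb. In the injected set 11 of them were measured, without Pecam1. The gate took 1141 of 2757 cells in the intact library, 1218 of 7360 at day 1, 1421 of 9263 at day 3 and 1239 of 7467 at day 7. It took 31 of 1377 cells after PBS and 33 of 2091 after MPSS. Median unique molecular identifiers (UMIs) per endothelial cell ran from 2486 at day 7 to 4407.5 at day 1 in the time course, and were 8069 after PBS and 9769 after MPSS. Libraries shared 5 to 91 cell barcodes in pairs, at most 1.67% of a library. Levels are given as CPM, the UMIs of a gene per 1000000 UMIs of the summed endothelial cells. The 2 sets use different gene tables, so levels are never compared between them.

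In endothelial cells 1 day after injury, 8 of the 10 members were at least 2-fold lower than in the intact library, and none was 2-fold higher. Over all 11219 genes with at least 20 UMIs in the 2 sums together, 11.3% were at least 2-fold lower and 13.3% at least 2-fold higher. All 10 members passed that minimum. The median log2 ratio of the members was -1.68, against -0.04 for all genes tested. Slc22a8 and Itm2a were lowest relative to intact, and Cldn5 and Slc2a1 did not reach 2-fold. At day 3, 1 member was 2-fold lower, and none higher, with 7.33% of 11356 genes called lower and 8.2% higher. At day 7 no member was called, with 5.33% of 10488 genes called lower and 4.23% higher, 9.56% in all. The panels of endothelial CPM by library show each member.

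**Figure D1:**
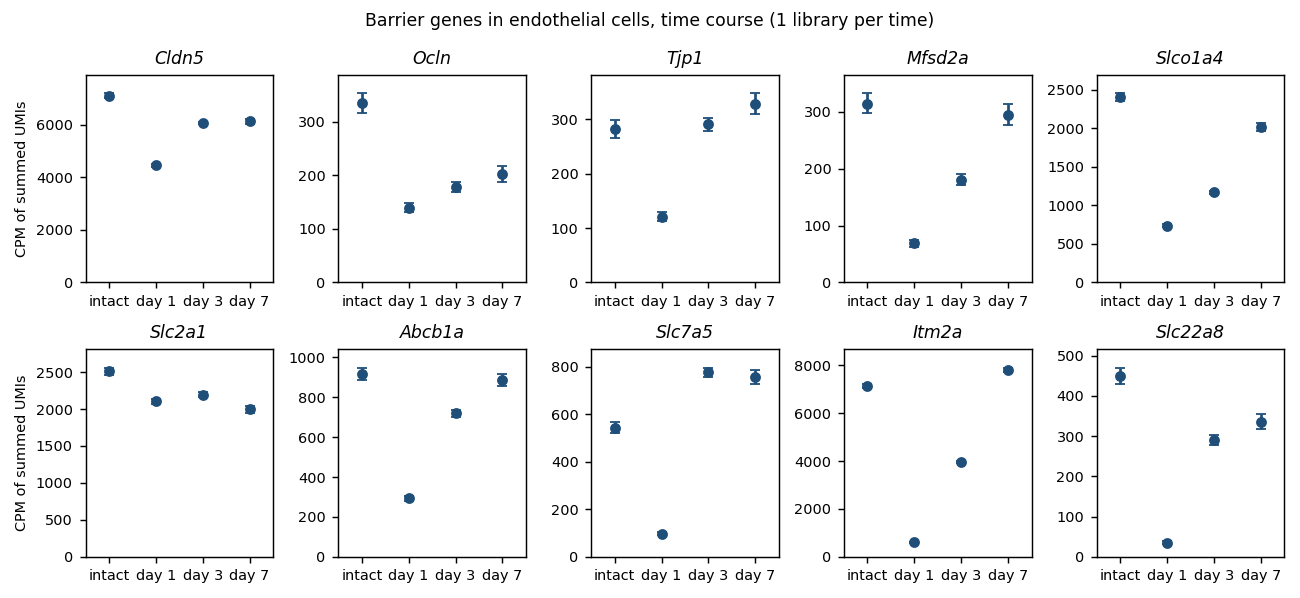
CPM of each barrier gene in summed endothelial cells (vertical axes, linear and from 0, scaled per gene) for the intact, day 1, day 3 and day 7 libraries. Points are 1 library each and bars are exact 95% Poisson intervals for counting error; 8 of 10 genes are at least 2-fold lower at day 1, and Slc2a1 and Cldn5 vary less.

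The junction genes differed in how far they were lower. Cldn5, the main claudin of this barrier, stood at 7111 CPM in intact cord, 4459 at day 1, 6065 at day 3 and 6129 at day 7. Its day 1 level was thus the lowest of the 4 libraries, 1.59-fold below intact (interval 1.57 to 1.62), and the later levels stayed within 1.17-fold of intact. Ocln stood at 335, 140, 177 and 202 CPM in the same order. Ocln was 2.4-fold lower at day 1 (2.21 to 2.6), and of the 3 junction genes it was furthest below intact at day 7, at 1.66-fold (1.51 to 1.81). Tjp1 stood at 281, 120, 291 and 328 CPM. Tjp1 was 2.34-fold lower at day 1 (2.14 to 2.56). Its ratio to intact was 1.03 at day 3 (0.962 to 1.11) and 1.17 at day 7 (1.07 to 1.27).

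Among transporters, Slc22a8 and Slc7a5 were furthest below intact at day 1. Slc22a8 stood at 449 CPM in intact cord, 34.8 at day 1, 290 at day 3 and 336 at day 7. Day 1 was 12.9-fold lower than intact (11.3 to 14.8), from 250 UMIs against 1804. Slc7a5 stood at 544, 97.3, 777 and 756 CPM, so the day 1 level was 5.59-fold lower (5.13 to 6.09) while both later levels lay above intact, by 1.43-fold at day 3 (1.36 to 1.5) and 1.39-fold at day 7 (1.31 to 1.47). Its sign held under all 17 alternatives at both times, though some of them, such as the filters on low counts, cannot move a member's ratio. The other transporters lay below intact at day 3 and day 7, a direction that held under 13 of 17 alternatives for Slc2a1 at day 3, 15 for Mfsd2a at day 7 and 14 for Abcb1a at day 7, and under all 17 for the others. Slco1a4 stood at 2401, 736, 1166 and 2015 CPM, 3.26-fold lower at day 1 (3.15 to 3.37) and 2.06-fold lower at day 3 (2 to 2.12). That day 3 value stayed past 2-fold under 9 of 17 alternatives and not under TMM scaling.

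Mfsd2a, the lysophospholipid carrier, stood at 315 CPM in intact cord, 68.8 at day 1, 181 at day 3 and 295 at day 7. Its day 1 level was 4.57-fold lower (4.12 to 5.09), and at day 7 its interval against intact reached past equality, with a ratio of 0.939 (0.864 to 1.02). Abcb1a, the efflux pump, stood at 918, 293, 720 and 887 CPM, 3.13-fold lower at day 1 (2.97 to 3.3). Its day 7 ratio also spanned 1, at 0.967 (0.922 to 1.01). Slc2a1, the glucose carrier, stayed within 2-fold of intact and lay below it at each time. Among the members, only Ocln and Slc22a8 were further below intact at day 7. It stood at 2510, 2103, 2192 and 1996 CPM, with a day 1 ratio of 0.838 (0.817 to 0.859) and a day 7 ratio of 0.795 (0.771 to 0.82).

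Itm2a, which is neither a junction gene nor a transporter, was low at day 1 like Slc22a8. It stood at 7139 CPM in intact cord, 613 at day 1, 3944 at day 3 and 7805 at day 7. Day 1 was 11.6-fold lower (11.3 to 12), from 4413 UMIs against 28712, and day 7 lay slightly above intact at a ratio of 1.09 (1.08 to 1.11).

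**Figure D2:**
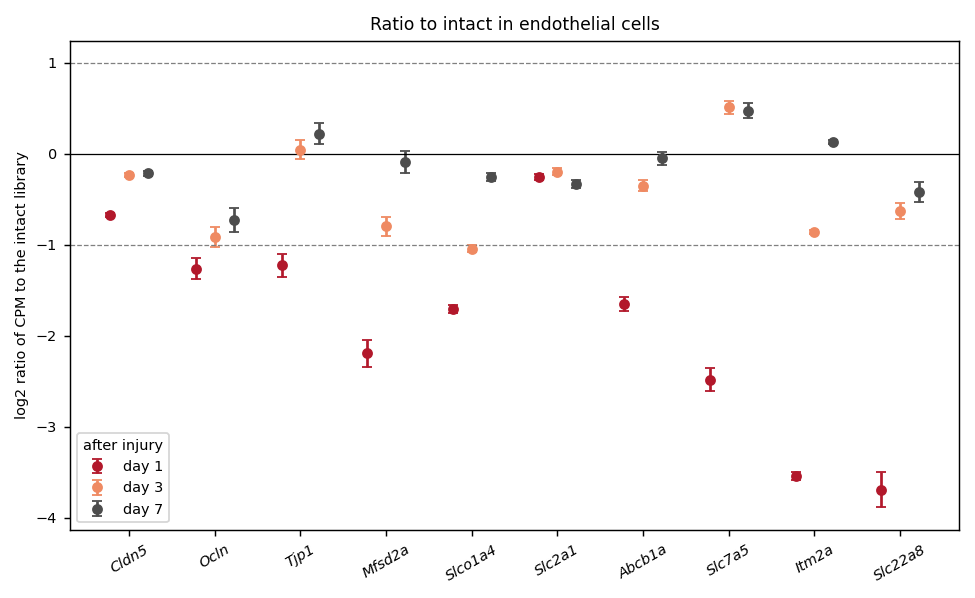
log2 ratio of endothelial CPM to the intact library (vertical axis) for each barrier gene (horizontal axis) at day 1, day 3 and day 7. Bars are exact 95% intervals for counting error and dashed lines mark 2-fold; day 1 points of 8 genes lie below the lower line, day 3 has Slco1a4 just past it, and no day 7 point passes either line.

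Between day 1 and day 3, 6 of the 10 members were at least 2-fold higher at day 3, and none was lower; over 11643 genes, 7.5% were called higher and 10% lower. The ratios were 8.34 for Slc22a8 (7.32 to 9.54), 7.98 for Slc7a5 (7.38 to 8.64) and 6.43 for Itm2a (6.23 to 6.64). Mfsd2a, Abcb1a and Tjp1 were the other three, at 2.63, 2.46 and 2.41. Since this comparison shares the day 1 library with the one against intact, the 2 sets of ratios are not independent. From day 3 to day 7 no member reached 2-fold, with 2.3% of 11183 genes called higher and 5.13% lower, 7.43% in all; Itm2a came nearest, at a ratio of 1.98 (1.95 to 2.01), and Slco1a4 and Mfsd2a followed at 1.73 and 1.63.

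The share of cells with a UMI followed the levels. Every cell was cut down at random to 1000 UMIs so that depth was equal, and no endothelial cell of the time course held fewer. Itm2a was detected in 99.2% of endothelial cells of intact cord, 38.3% at day 1, 92.5% at day 3 and 98.5% at day 7. Slc22a8 was detected in 35.4%, 2.71%, 29.1% and 27.9%, and Slc7a5 in 41.4%, 8.78%, 53.2% and 47.1%. Slc2a1, in contrast, was detected in 89.5%, 82.1%, 87.1% and 83.1%, and Cldn5 in 99.3%, 90.4%, 99.3% and 98.9%. Without thinning, the shares at day 1 were 75.5% for Itm2a, 13.5% for Slc22a8, 34.7% for Slc7a5, 97% for Slc2a1 and 98.5% for Cldn5. In phagocytes, which should lack Itm2a, Slc22a8 and Cldn5, the thinned shares at day 1 were 0.659% for Itm2a, 2.75% for Cldn5 and 0% for Slc22a8 (0 of 4398 cells, which by a floor of 3 counts allows a share of up to 0.0682% of cells with a UMI at this depth; 2 of these cells held one without thinning). The phagocyte shares of Slc7a5, 4.46%, and Slc2a1, 10.8%, were not read as background, since their summed levels in phagocytes at day 1 were 54.3% and 4.89% of the endothelial levels, where the endothelial markers were at 1.24%. Phagocytes had a median of 5379.5 UMIs at day 1 and endothelial cells 4407.5, before thinning. In the intact library the phagocyte shares were higher, at 18.5% for Itm2a and 17.1% for Cldn5. A thinned intact endothelial cell held a UMI of 5.89 members on average, a day 1 cell of 3.25, a day 3 cell of 5.45 and a day 7 cell of 5.63.

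The lower day 1 sums were spread over many cells. The median cell had 7107 CPM of Itm2a in intact cord and 399 at day 1, and the 90th percentile at day 1, 1788 CPM, lay below the 10th percentile in intact cord, 3525 CPM. For Cldn5 the cells overlapped: the 10th and 90th percentiles were 3945 and 10338 CPM in intact cord and 1254 and 9039 CPM at day 1. Slco1a4 was between these, with 10th and 90th percentiles of 1006 and 4271 CPM in intact cord and 0 and 2451 CPM at day 1. No single cell gave more than 2.8% of the day 1 UMIs of a member.

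Vessel segment classes were set from marker lists that hold no member. Tip-like cells, named from Apln, Esm1, Angpt2 and 5 other genes of sprouting endothelium, numbered 3 in intact cord, 254 at day 1, 30 at day 3 and 3 at day 7. Capillary-like cells made up 89% of endothelial cells in intact cord, 20% at day 1, 68.3% at day 3 and 76.1% at day 7. Venous-like cells were 3.24%, 29.1%, 12.6% and 7.26%. Cells tied between classes were 5.43% in intact cord and 20.6% at day 1, and cells without a class 0.438% and 6.4%. Classes were set by the number of markers detected in unthinned cells, with median UMIs of 2880 in intact cord and 4407.5 at day 1. The part of depth in these shares was not tested. The segment lists were not fixed for injured tissue, so a class may hold different cells in different libraries.

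Within capillary-like cells alone, 6 members were still at least 2-fold lower at day 1 (243 cells) than in intact cord (1015 cells). Over all genes in these cells, 1206 were called lower and 1019 higher, beside 1269 lower and 1492 higher in all endothelial cells. How many genes were tested in this class was not counted, so no share is given. Itm2a was at 848 against 7248 CPM, a ratio of 0.117 (0.11 to 0.124), and Slc22a8 at 63.4 against 458 CPM, a ratio of 0.138 (0.11 to 0.171). Slc7a5, Mfsd2a, Abcb1a and Slco1a4 had ratios of 0.2, 0.376, 0.398 and 0.403. The junction genes Ocln and Tjp1 lay just inside 2-fold, at 0.534 and 0.507, and Cldn5 at 0.785. Slc2a1, at 2477 against 2526 CPM, had a ratio of 0.98 (0.942 to 1.02), so its level in capillary-like cells was not distinguishable from intact. Venous-like cells, 354 at day 1 and 37 in intact cord, had ratios of 0.105 for Itm2a, 0.0886 for Slc22a8 and 0.193 for Slc7a5, and 1.06 for Slc2a1 (0.944 to 1.2).

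Among day 1 cells, tip-like cells had lower levels than capillary-like cells for 9 of the 10 members. That count takes a lower level of any size, and Cldn5, Slc2a1 and Tjp1 lay within 2-fold. The share over all genes was not computed for this comparison, so the count cannot be set against genes in general. Slc22a8 was at 1.83 CPM from 3 UMIs in tip-like cells and at 63.4 CPM from 88 UMIs in capillary-like cells, a ratio of 0.0289 (0.00585 to 0.0873). The ratio of tip-like to capillary-like cells was 0.0993 for Slco1a4 (0.0837 to 0.117), 0.193 for Itm2a (0.168 to 0.221) and 0.229 for Mfsd2a (0.162 to 0.318). Junction genes and the other transporters were nearer, with 0.457 for Ocln, 0.465 for Abcb1a, 0.526 for Cldn5, 0.621 for Slc2a1 and 0.788 for Tjp1. Slc7a5 was the exception, at 117 against 113 CPM, a ratio of 1.04 (0.836 to 1.29).

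**Figure D3:**
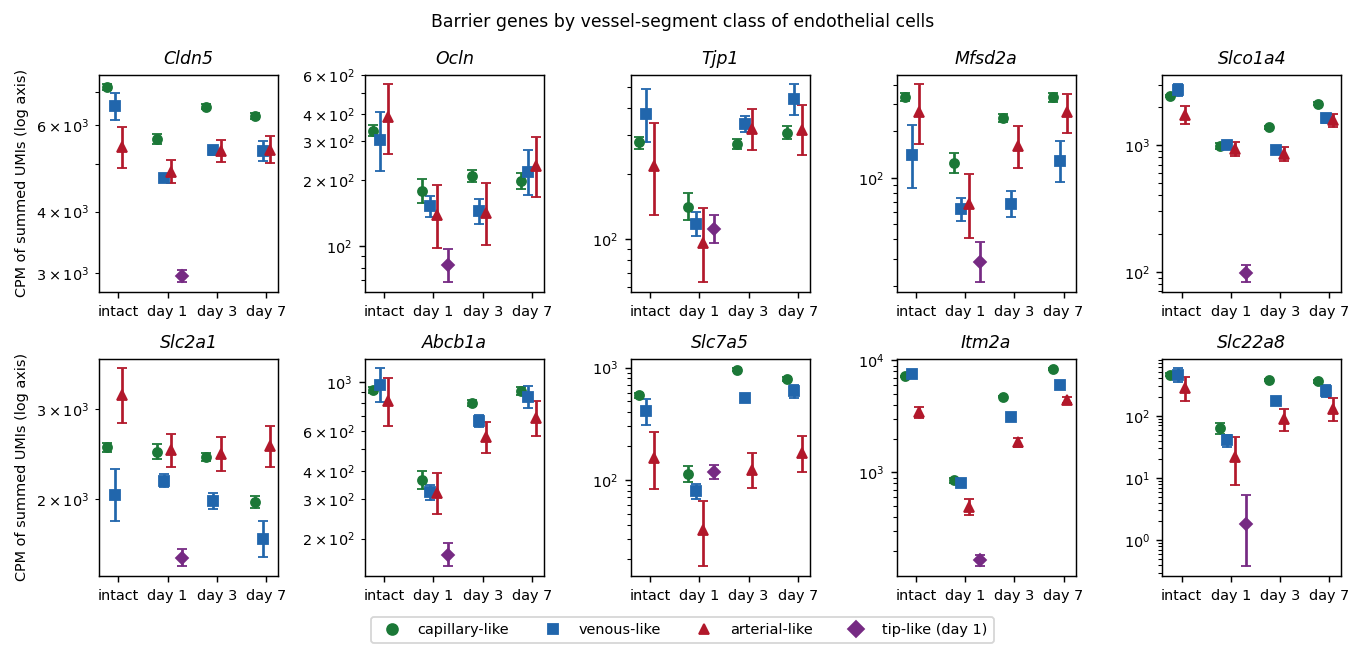
CPM of each barrier gene (vertical axes, log scale, separate for each gene) in capillary-like, venous-like and arterial-like endothelial cells of the intact, day 1, day 3 and day 7 libraries, with tip-like cells at day 1. Bars are exact 95% Poisson intervals. For every gene but Slc2a1, the capillary-like, venous-like and arterial-like points are lower at day 1 than in intact cord. At day 1 tip-like cells are lowest for all genes but Slc7a5 and Tjp1.

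In intact cord some members already differed between segments. Mfsd2a was at 333 CPM in capillary-like cells and 141 CPM in venous-like cells, a ratio of 0.425 (0.259 to 0.659). Slc7a5 and Itm2a were lower in the 19 arterial-like cells than in capillary-like cells, with ratios of 0.277 (0.147 to 0.476) and 0.474 (0.42 to 0.533). Slc2a1 was higher there, with a ratio of 1.27 (1.12 to 1.43). Slco1a4 differed less between venous-like and capillary-like cells, at 1.12 (1.01 to 1.24). At day 3 the capillary-like class was closer to intact than the venous-like class for Itm2a, with ratios to the same class in intact cord of 0.657 and 0.406, for Slco1a4, with 0.567 and 0.334, and for Slc22a8, with 0.821 and 0.38; the difference between classes was not tested.

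The other junction genes, 20 genes such as other claudins, JAM proteins and ZO partners, did not share the day 1 pattern. Of 16 tested at day 1, 1 was higher and none was 2-fold lower, with a median log2 ratio of 0.21. Nectin2, a nectin of adherens junctions, was higher at day 1, day 3 and day 7, by 3.27-fold (2.36 to 4.61), 2.67-fold and 2.41-fold. F11r, which encodes JAM-A, was 2.06-fold lower at day 3. Of 16 tested, 1 was higher and 1 lower at day 3, and 1 was higher and none lower at day 7.

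The list of 25 other barrier transporters and receptors was lower at day 1 in most of its genes: 17 of 25 were at least 2-fold lower and 3 were higher, with a median log2 ratio of -1.27. Slc40a1, the iron exporter ferroportin, was 8.26-fold lower (7.37 to 9.28), Tfrc, the transferrin receptor, was 6.74-fold lower (5.76 to 7.91), and Slc7a1, a cationic amino acid carrier, was 5.84-fold lower (5.32 to 6.43). The 3 higher genes were Abcb1b, the second rodent P-glycoprotein gene, at 14.3 against 1.74 CPM (ratio 8.23, 3.85 to 21), Abcc1, at 11.4 against 2.73 CPM (ratio 4.17), and Lrp1 (ratio 2.08). Abcb1b thus lay above intact while Abcb1a lay below it; the 2 genes are close paralogs whose reads may be split by the counting. At day 3, 2 of 25 were higher, Lrp1 and Abcb1b, and none lower; at day 7 none of 23 tested was called.

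Wnt and barrier regulators were called lower in 7 of 22 genes at day 1, and none was higher; the median log2 ratio was -0.74. Axin2, Notum and Fzd6 were among the lower genes: Axin2, a target of beta-catenin signalling, was 5.97-fold lower (4.75 to 7.56), Notum, a Wnt inhibitor, was 7.6-fold lower (5.36 to 11), and Fzd6, a Wnt receptor, was 3.46-fold lower (2.91 to 4.11). At day 3, 1 of 22 was higher and 2 were lower: the transcription factor gene Foxq1 was 2.54-fold higher than intact, and Sox18 and Lef1 were 2.47-fold and 2.28-fold lower. At day 7 Foxq1 and Sox17 were 3.16-fold and 2.14-fold higher, and none was lower.

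In the list of caveolae, fenestrae and leukocyte adhesion genes, 5 of 14 were higher and 3 lower at day 1, with a median log2 ratio of 0.11. Itga5 was 4.49-fold higher (3.36 to 6.12) and Cavin3 3.1-fold higher (2.88 to 3.34), while the caveolae genes Cavin2, Cav2 and Cav1 were 4.13-fold, 2.07-fold and 2.06-fold lower. Sele, the endothelial selectin, had 121 UMIs at day 1 against 1 in intact cord, a ratio of 67.6 (11.9 to 2694). Plvap, which forms fenestral diaphragms and is scarce in sealed vessels, had 0 UMIs in intact endothelial cells and 119 at day 3, which makes it at least 19.3-fold higher against a floor of 3 counts; these came from 39 cells. At day 3, 5 of 14 were higher and 2 lower, and at day 7, 3 of 12 were higher and none lower. At day 7 Plvap had 2 UMIs, and Vcam1, an adhesion molecule for leukocytes, was 4.82-fold higher than intact (4.21 to 5.52).

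Outside endothelium, the level of every member was lower than in endothelial cells in the intact, day 3, day 7, PBS and MPSS libraries, over classes of at least 30 cells. At day 1, 9 of 10 were highest in endothelial cells. Tjp1 was at 123 CPM in pericyte or smooth muscle cells and 120 CPM in endothelial cells. The former class held only 55 cells, with a median of 2049 UMIs, and this difference was not tested. Free or attached endothelial RNA can add to such values. The 12 endothelial markers were used as a guide to it. How much of their signal in other classes was such RNA was not tested. The summed level of these markers in phagocytes was 4.19% of that in endothelial cells in intact cord, 1.24% at day 1, 0.92% at day 3 and 1.39% at day 7. In pericyte or smooth muscle cells it was 36.3% at day 1, 30.3% at day 3 and 19.9% at day 7. Most member levels in that class lay near this share, and at day 3 Cldn5 stood at 1309 CPM, 21.6% of its endothelial level.

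Some members lay far above the share of endothelial markers in other classes. Mfsd2a stood at 38.9, 68 and 81.4 CPM in oligodendrocyte precursors at day 1, day 3 and day 7. At day 3 that was 37.5% of its endothelial level, where the markers were at 1.99%, or 18.9 times as many UMIs per marker UMI (14.9 to 23.7). Ocln stood at 108 CPM in ependymal cells of intact cord, 32.3% of the endothelial level, where the markers were at 3.29%. Slc2a1 stood at 359 CPM in the same ependymal cells, 14.3% of its endothelial level. Slc7a5 stood at 52.8 CPM in phagocytes at day 1, from 1682 UMIs, 54.3% of the day 1 endothelial level, and at 13 CPM at day 3. In endothelial cells without 3 or more phagocyte markers, its day 1 log2 ratio to intact was -2.41, beside -2.48 in all endothelial cells.

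Fibroblasts and glia held others. Itm2a stood at 422 CPM in fibroblasts at day 3 and 1142 CPM at day 7, 10.7% and 14.6% of the endothelial level, with endothelial markers at 3.69% and 6.36%. Abcb1a stood at 114 CPM in fibroblasts at day 3, 15.8% of the endothelial level. Tjp1 was the most widespread member, at 29.2% of its endothelial level in astrocytes, 16.1% in ependymal cells and 11.8% in oligodendrocyte precursors at day 3. Cldn5, Slco1a4 and Slc22a8, in contrast, were at or below the marker share in phagocytes, fibroblasts, astrocytes, ependymal cells and oligodendrocyte precursors at day 3.

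**Figure D4:**
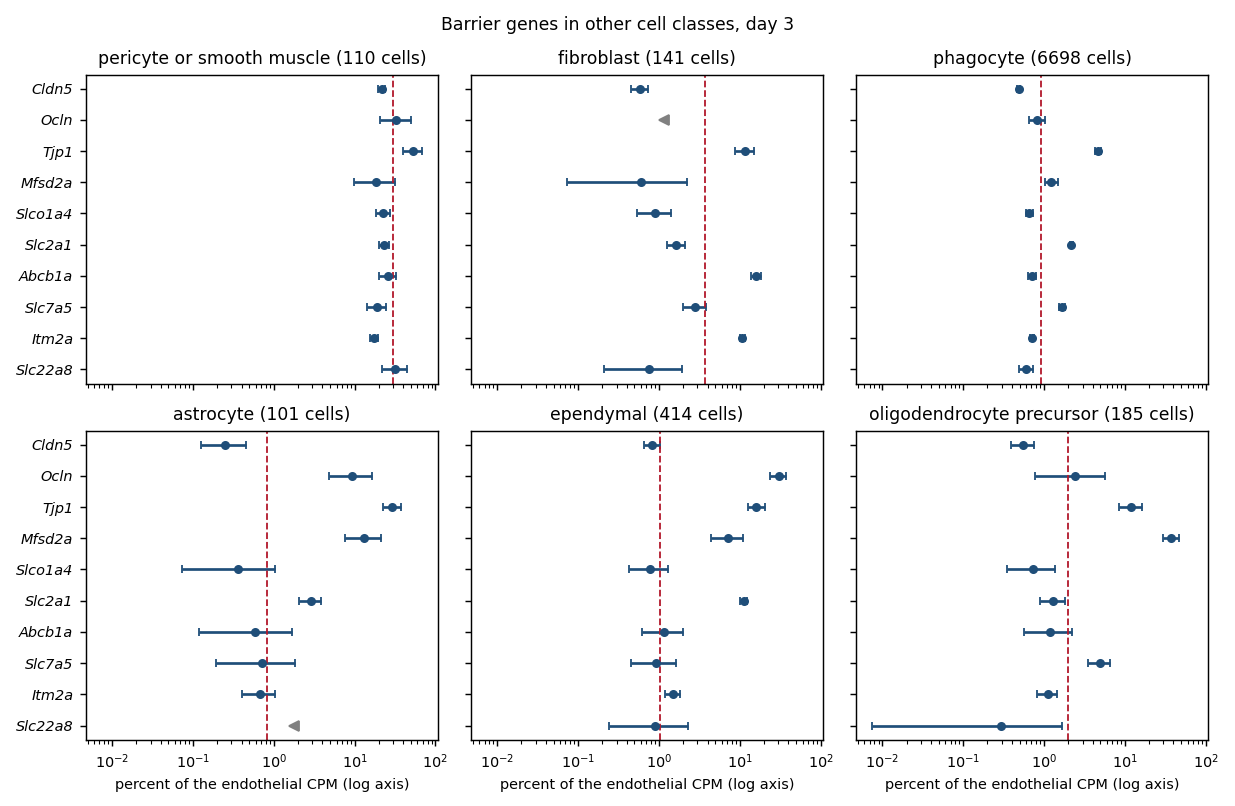
Level of each barrier gene in 6 other cell classes at day 3 (horizontal axes, log scale) as a percent of its endothelial CPM, with exact 95% intervals; grey arrows mark the upper end of the interval where no UMI was counted. The dashed line is the summed level of the endothelial markers in that class; Mfsd2a in oligodendrocyte precursors, Ocln and Slc2a1 in ependymal cells, Abcb1a and Itm2a in fibroblasts and Tjp1 in several classes lie to the right of it.

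Markers of other cell types in the endothelial sums were measured alongside. All 10 phagocyte markers were detected in each time-course sum, at a summed 873 CPM in intact cord, 717 at day 1, 1080 at day 3 and 1717 at day 7. Neutrophil markers, also 10 of 10, summed to 686, 1117, 174 and 956 CPM, and pericyte markers, 10 of 10, to 210, 343, 521 and 199 CPM. Of 9 astrocyte markers, 8 were detected in intact cord and at day 1, 6 at day 3 and 7 at day 7, at a summed 87.5, 275, 68.5 and 92.2 CPM, highest at day 1. Gjb6 was at 0 in all 4, Aldh1l1 also at day 3 and day 7, and Aqp4 at day 3. Their part in the member levels was not tested. Cells that carried 3 or more phagocyte markers were 41.2% of endothelial cells in intact cord, 37.5% at day 1, 61.6% at day 3 and 66.6% at day 7. Without them, the same number of members, 8 of 10, was at least 2-fold lower at day 1. Over all genes in the remaining cells, 1051 were called lower and 1232 higher. Without the cells with 2 or more tip markers, 42.8% of endothelial cells at day 1 and 7.8% in intact cord, 7 of 10 members were 2-fold lower. Over all genes in the cells left, 1076 were called lower and 1123 higher. For neither set of remaining cells was the number of genes tested counted, so no share is given. Without the tip-marker cells, Ocln lay at a log2 ratio of -0.94. Slco1a4 lay at -1.04 without these cells, against -1.71 in all endothelial cells at day 1, and its day 3 against day 1 log2 ratio was 0.14 in place of 0.66. The day 1 ratio of Slc22a8 moved by over 1.5 times toward intact as well, and it was still at least 2-fold lower.

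In the injected cords the question was whether MPSS and PBS cords differed 2 weeks after injury. Endothelial cells were few, 33 after MPSS and 31 after PBS, and 1 of 9 members reached 2-fold. That was Slc22a8, at 151 CPM after MPSS and 52.8 after PBS, a ratio of 2.87 (1.72 to 4.94) from 55 and 22 UMIs. These UMIs came from 13 and 10 cells, and the cell with the most gave 18.2% and 22.7% of them. Over 4114 genes with at least 20 UMIs, 3.65% were at least 2-fold higher after MPSS and 5.61% lower, 9.26% in all, and the median log2 ratio was 0.41 for the 9 members and -0.04 for all genes.

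The other 8 members did not reach 2-fold, and all had ratios above 1. The ratio of MPSS to PBS was 1.61 for Slc7a5 (1.21 to 2.14), at 336 and 209 CPM, and 1.52 for Slc2a1 (1.36 to 1.71), at 2004 and 1315 CPM. It was 1.33 for Itm2a (1.2 to 1.47), at 2296 and 1732 CPM, and 1.26 for Cldn5 (1.18 to 1.34), at 5208 and 4146 CPM. Intervals of the others reached 1 or nearly so. Mfsd2a had a ratio of 1.53 (0.873 to 2.71) from 32 and 24 UMIs, Ocln of 1.19 (0.799 to 1.78), Tjp1 of 1.11 (0.813 to 1.51) and Slco1a4 of 1.15 (1 to 1.33), at 1123 and 974 CPM. The ratio stayed above 1 under all 17 alternatives for Ocln, Mfsd2a, Slc7a5 and Itm2a, under 16 for Cldn5, Tjp1 and Slc2a1, and under 14 for Slco1a4. Erythroid markers summed to 1151 CPM in the MPSS endothelial sum and 16.8 CPM in the PBS sum, and oligodendrocyte markers to 391 and 206 CPM; their part in these ratios was not tested.

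**Figure D5:**
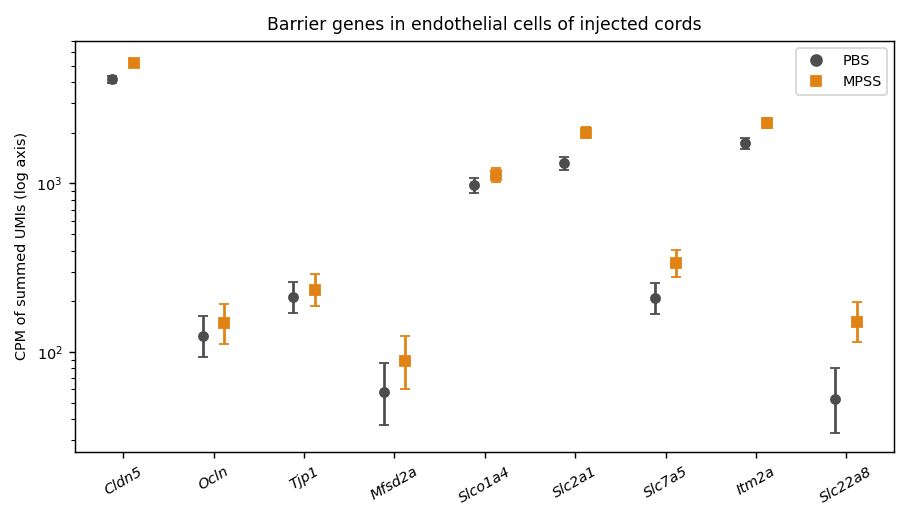
CPM of 9 barrier genes in summed endothelial cells after PBS (31 cells) and MPSS (33 cells), on a log axis. Bars are exact 95% Poisson intervals; the MPSS point is above the PBS point for each gene, and only the intervals of Cldn5, Slc2a1, Slc7a5, Itm2a and Slc22a8 do not overlap.

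In the same sums 3 of 13 tested transporters and receptors were at least 2-fold higher after MPSS and none was lower: Tfrc at a ratio of 3.02 (1.82 to 5.19), Lrp8 at 2.62 (1.02 to 7.54) and Slc6a6, the taurine carrier, at 2.14 (1.35 to 3.46). Of 14 caveolae, fenestrae and adhesion genes, 6 were lower and none was higher. Plvap had 153 UMIs after PBS and 0 after MPSS, at least 44.5-fold lower against a floor of 3 counts; the 153 came from 10 cells, 1 of which gave 32% of them. Vcam1 was 2.72-fold lower (1.53 to 5.12) and Itga5 3.05-fold lower (1.19 to 9.24). Of 14 Wnt and barrier regulators tested, Axin2 was higher, at a ratio of 2.04 whose interval spanned 1 (0.849 to 5.24), and Fzd6 was 2.21-fold lower (1.19 to 4.32). None of 9 other junction genes reached 2-fold.

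Genes with patterns most like those of Cldn5 and Mfsd2a were found over 30 class-by-library sums of the time course, which share libraries and depth. For Cldn5 the 5 nearest by correlation of log2(CPM + 10) were Flt1 (Pearson r = 0.99), Adgrf5, Egfl7, Slco1a4 and Adgrl4, of which Flt1 and Egfl7 are markers of the endothelial gate. For Mfsd2a they were Tpd52l1 (r = 0.91), Mpzl1, Lrrn3, Tmtc2 and Plcb1. By the distance between the 3 endothelial log2 ratios to intact, over 4807 genes, Tcaf1, Mff, Oga, Lyrm1 and Phc1 were nearest to Cldn5, and Axin2, Gbp3, Ndnf, Ephx1 and Alpl were nearest to Mfsd2a. Axin2 had log2(CPM + 10) ratios of -1.95, -0.77 and -0.19 at day 1, day 3 and day 7, beside -2.04, -0.77 and -0.09 for Mfsd2a.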

How the data were processed

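Single-cell libraries were made with 10x Genomics 3′ kits, per the labels' protocols. The deposited tables hold raw UMI counts, genes by cells; Cell Ranger 3.0.2 is named in the submitters' processing notes and 3.1.0 in the file headers of the injected set, and the genome build is not given in the sources used here. Names of the intact and day 1 tables that R had rewritten were restored, and 77 names without a shared row, at most 0.0241% of the UMIs of a library, were left out. Library depth ran from 9663877 to 72515788 UMIs.

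The cell filter asked for 200 genes, 500 UMIs and no more than 20% of UMIs from mitochondrial genes. A cell joined the class whose marker list had the highest scaled mean level, with 3 or more markers detected. Segment classes needed 2 markers. Counts were summed per class and library and divided by their total (CPM). Intervals are exact Poisson for levels, exact binomial for ratios and Clopper-Pearson for shares, and a gene was called at 2-fold or more with at least 20 UMIs over both sums. With 1 library per group no p-value was computed. The interval code was tested on counts simulated from the counting model that the intervals assume. That checks the code only, since spread between cells or animals was not simulated. Scrublet marked 0.0363% to 0.503% of cells, too few to have worked as a doublet caller, so doublets were kept. Tools were Python 3.11.15, scipy 1.17.1, scanpy 1.11.5 and R 4.3.3 with edgeR 4.0.16 for TMM factors.

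The members and lists were chosen with earlier results of these data known. All members were named in each comparison; from each of 4 context lists, the 3 highest and the 3 lowest log2 ratios of CPM + 10 among genes past 2-fold; for Cldn5 and Mfsd2a, the 5 most alike genes. Lists from the lymphatic check were used only to inspect the gate: the 5 lymphatic markers summed to 39.1 to 84.2 CPM in the time-course endothelial sums.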

Additional observations from a re-analysis of the deposited data

How the results depend on the processing

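No paired analysis was possible because each group has 1 library. Of 1003 values of single members under the alternatives, 739 moved by less than their counting interval, 264 moved further and 0 called ratios changed sign. Some alternatives could not move these values. The filters on low counts leave a member's ratio as it is, and in the time course every deposited cell passed the cell filter. Leaving out Scrublet doublets removed at most 4 endothelial cells of a library. These settings count among the 17 and say little about how stable a ratio is. At day 1, 8 members were at least 2-fold lower under every alternative except 2: 7 without tip-marker cells and 6 in capillary-like cells, where Ocln (-0.90) and Tjp1 (-0.98) fell short of 2-fold on the log2 scale. Slco1a4 at day 3 stayed past 2-fold under 9 of 17 alternatives, with log2 ratios from -1.06 to -0.80. Between day 1 and day 3, 6 members were higher under every alternative but the capillary-like one, with 4. Slc22a8 stayed at least 2-fold higher after MPSS under 17 of 17 alternatives (log2 1.16 to 1.85), though the capillary-like one rested on 4 cells a library; Mfsd2a passed 2-fold under 2. At day 7, leaving out cells with phagocyte markers, 66.6% of endothelial cells there, moved Slc22a8 from -0.42 to -0.73. Its day 7 against day 3 log2 ratio, which was not called, went from 0.21 to -0.35.

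Counts over all genes depended on the filter. Without it, 6539 genes were called at day 1 (2761 with it), 5749 at day 3 (1763), 4680 at day 7 (1003), 5416 for day 3 against day 1 (2043), 4379 for day 7 against day 3 (831) and 4142 for MPSS against PBS (381). With at least 100 UMIs, they were 1713, 820, 376, 1199, 264 and 27. Leaving out cells with phagocyte markers gave 1161 at day 3 and 532 for day 7 against day 3. For MPSS against PBS, capillary-like cells gave 59 and the mean over cells 680. The causes were not tested, other than that each filter sets how many genes enter. TMM scaling shifted all log2 ratios by 0.10 at day 1, 0.21 at day 3, 0.16 at day 7 and 0.07 for MPSS; the share of calls that were higher went from 52.8% to 69.9% at day 3, from 44.3% to 60.6% at day 7 and from 42.7% to 53.7% for day 3 against day 1. Under it no member was 2-fold lower at day 3. Doublets, free RNA and differences between animals within a library limit every value, and the 31 and 33 endothelial cells of the injected cords limit those most.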
